A study of Mus musculus with 12 samples.

Results

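The 9 genes described here encode the insulin receptor and the core of the PI3K-AKT pathway below it. They were chosen by name as *Insr*, *Irs1*, *Irs2*, *Pik3ca*, *Pik3r1*, *Akt1*, *Akt2*, *Foxo1* and *Foxo3*, out of 45792 genes listed in the data, and all 9 had enough counts to be tested. Their RNA was measured in 12 libraries of rRNA-depleted total RNA, 1 per culture, from primary forebrain neural stem cells (NSCs) of mouse pups 1 to 2 days old. The 3 groups of 4 libraries were WT NSCs, *Ncf1*-/- NSCs given vehicle and *Ncf1*-/- NSCs given mouse recombinant Igfbp2. *Ncf1* encodes a subunit of the Nox2 NADPH oxidase, both of its copies are defective in *Ncf1*-/- animals, and the line was crossed to C57BL/6J. The labels list no treatment for the WT and vehicle groups. Igfbp2 was added 48 h after plating and RNA was taken 48 h later, at 60 ng/ml according to the methods of the study and at 100 ng/ml according to the labels. According to the methods each culture came from a single pup, and every group grew in serum-free medium that contained insulin, EGF and FGF. Insulin was therefore present in all 12 cultures.

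Insulin binds the insulin receptor, a tyrosine kinase, which phosphorylates the adaptors Irs1 and Irs2. These recruit class I PI3K, a dimer of a catalytic subunit such as p110α and a regulatory subunit such as p85α, and the lipid PIP3 that it makes brings AKT kinases to the membrane. Active AKT phosphorylates FOXO transcription factors, which then leave the nucleus, and in neural stem cells FOXO factors are known for keeping the cells quiescent and able to self-renew. Igfbp2 is a secreted protein that binds Igf1 and Igf2, the ligands of the related Igf1 receptor.

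Library depth lay between 18201622 and 34086554 expected counts, the estimated number of reads per gene that RSEM gives. Expression is given as CPM, counts set relative to the library total after TMM scaling for library composition. *Ncf1* had 1 to 7 counts per library over the 3 groups, too few to check the genotype. Y-linked genes together stood at 105 to 118 CPM in all vehicle-treated *Ncf1*-/- libraries and in WT replicates 1 to 3, and at 6.46 to 9.18 CPM in all Igfbp2-treated *Ncf1*-/- libraries and in WT replicate 4. *Xist*, the RNA of the inactive X chromosome, had 72.3 to 87.8 CPM with vehicle, 165.7 to 274.6 CPM with Igfbp2, 3.87 to 5.22 CPM in WT replicates 1 to 3 and 290.8 CPM in WT replicate 4. The methods of the study describe the *Ncf1*-/- cultures as pairs from the same animals, so the Y-linked levels of the vehicle and Igfbp2 libraries go against that description. *Xist* beside high Y-linked RNA in each vehicle-treated library likewise goes against a culture of a single pup. Treatment and sex-linked expression cannot be told apart in the comparison of these groups. A sample sheet that accompanies the study's code lists the library of WT replicate 4 as treated with apocynin, an inhibitor of NADPH oxidase, where the labels list no treatment. WT replicate 3 also stood apart. None of 8 markers of neural stem cells was at 0 counts in any library, and their sum was 8307 CPM in it and 2672 to 4031 CPM in the other WT libraries, against 7783 to 8414 CPM with vehicle and 7700 to 8212 CPM with Igfbp2. *Vim*, *Fabp7* and *Nes* made up most of this sum (7194 CPM in WT replicate 3, 1762 to 2940 CPM in the other WT libraries and 7065 to 7871 CPM in the *Ncf1*-/- libraries). The other 5 markers, set apart after their values were seen, went the opposite way. They summed to 909.5 to 1113 CPM in WT, with replicate 3 the highest, and 530.2 to 660.9 CPM in the *Ncf1*-/- libraries. WT replicate 3 thus resembled *Ncf1*-/- NSCs in the sum of *Vim*, *Fabp7* and *Nes* and not in that of the other 5. *Nes* by itself had at most 15569 counts in any WT library and at least 15618 in each *Ncf1*-/- library, although WT replicate 3 was the deepest. Summed oligodendrocyte lineage markers were 3212 CPM in WT replicate 3, 6805 to 11270 CPM in the other WT libraries and 2177 to 2344 CPM in the *Ncf1*-/- libraries. The edgeR tests against WT were repeated without WT replicates 3 and 4, and these values are given beside the calls. The WT libraries left in these fits all had high Y-linked RNA. For Igfbp2 against WT, group and sex-linked expression therefore cannot be told apart in them. In bulk RNA, fewer cells of a type and less RNA per cell cannot be told apart.

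The genes lie on 7 chromosomes and have between 1 and 14 transcripts in the files. In GENCODE M21 on GRCm38, *Insr* (ENSMUSG00000005534) is at chr8:3122061-3279617 on the minus strand, with up to 21 exons. *Irs1* (ENSMUSG00000055980) is at chr1:82233101-82291416 and *Irs2* (ENSMUSG00000038894) at chr8:10984681-11008458, both on the minus strand with 2 exons. *Pik3ca* (ENSMUSG00000027665) is at chr3:32397671-32468486 on the plus strand and *Pik3r1* (ENSMUSG00000041417) at chr13:101680563-101768217 on the minus strand. *Akt1* (ENSMUSG00000001729) is at chr12:112653821-112674884 on the minus strand and *Akt2* (ENSMUSG00000004056) at chr7:27591552-27640826 on the plus strand. *Foxo1* (ENSMUSG00000044167) is at chr3:52268336-52353221 on the plus strand and *Foxo3* (ENSMUSG00000048756) at chr10:42181841-42276755 on the minus strand.

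RefSeq promoter windows (GRCm38.p6) matched 8 of the 9 genes by symbol, and *Insr* had none. The windows of the adaptor and FOXO genes are shown because these 4 genes, of the 8 with a window, were called in both of the first comparisons described below. Each is the 250 bases before the RefSeq start site, read 5′ to 3′ on the strand of the gene, and stops earlier where GENCODE places the first base of the gene. Capitals mark matches on either strand to 5 motifs, namely TGTTTAC (the FOXO consensus), TGTTTTG (an insulin response element), CACGTG (an E-box, bound by helix-loop-helix factors), TGACGTCA (the cAMP response element) and GGGCGG (a GC box, bound by Sp1).
*Irs1*, chr1:82291440-82291689, minus strand: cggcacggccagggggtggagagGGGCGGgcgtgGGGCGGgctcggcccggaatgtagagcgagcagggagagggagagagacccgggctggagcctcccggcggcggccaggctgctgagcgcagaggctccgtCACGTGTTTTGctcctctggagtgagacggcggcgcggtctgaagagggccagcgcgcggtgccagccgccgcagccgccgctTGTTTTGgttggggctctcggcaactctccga
*Irs2*, chr8:11008930-11009179, minus strand: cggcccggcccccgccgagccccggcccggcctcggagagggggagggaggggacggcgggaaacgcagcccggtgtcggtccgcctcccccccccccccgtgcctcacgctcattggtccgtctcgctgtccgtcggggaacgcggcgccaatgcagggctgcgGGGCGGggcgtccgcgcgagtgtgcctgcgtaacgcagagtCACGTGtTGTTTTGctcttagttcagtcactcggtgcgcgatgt
*Foxo1*, chr3:52268087-52268335, plus strand: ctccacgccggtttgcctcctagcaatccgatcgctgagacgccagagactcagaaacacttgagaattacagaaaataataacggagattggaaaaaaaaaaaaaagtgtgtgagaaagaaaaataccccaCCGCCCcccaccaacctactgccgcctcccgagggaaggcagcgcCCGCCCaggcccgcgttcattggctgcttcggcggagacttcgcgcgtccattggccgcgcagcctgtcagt
*Foxo3*, chr10:42276756-42276945, minus strand: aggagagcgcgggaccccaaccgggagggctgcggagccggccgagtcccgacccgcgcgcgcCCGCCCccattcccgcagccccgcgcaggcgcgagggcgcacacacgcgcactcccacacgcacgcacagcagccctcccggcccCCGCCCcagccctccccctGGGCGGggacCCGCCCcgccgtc
The *Irs1* and *Irs2* windows each held an E-box next to an insulin response element. In *Irs1* the E-box began 115 bases before the start site and overlapped the element that began at 111, with another element at 32. In *Irs2* the E-box began 44 bases before the start site and the element 37 bases before it. For *Irs1* and *Irs2* the bases that follow the RefSeq start site were in no GENCODE transcript of the gene, unlike for *Foxo1* and *Foxo3*. These distances therefore rest on the RefSeq start site alone. Over 32851 RefSeq windows of 250 bases, TGTTTTG was in 5.56%, CACGTG in 6.02% and both in 97 windows (0.295%), a pairing singled out after the matches were seen. The *Foxo1* and *Foxo3* windows held GC boxes, as did 32.7% of all windows, and none of the other 4 motifs. TGTTTAC, in 3.17% of all windows, was in none of these 4 windows and in 1 of the 2 windows of *Akt1*, and TGACGTCA, in 1.55% of all windows, was in no window of the 8 genes. The matches are descriptions of the sequence and do not show binding.

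**Figure D1:**
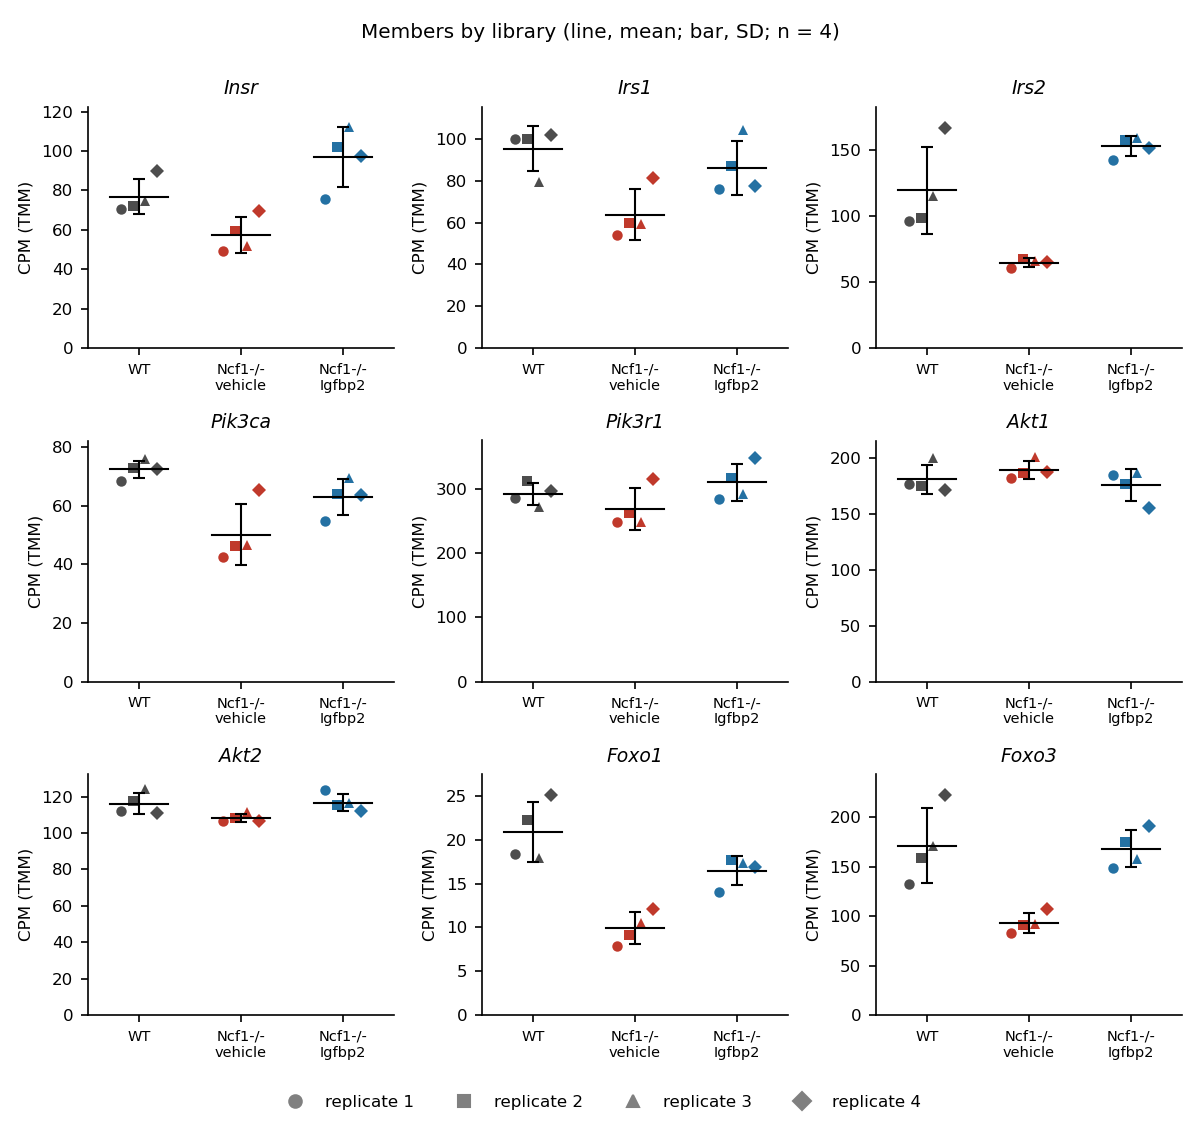
TMM-scaled CPM (vertical axis, from 0) of the 9 genes in the 12 libraries, by group (horizontal axis), with a marker shape per replicate number, a line at the mean and a bar of 1 SD. The vehicle-treated *Ncf1*-/- libraries of *Irs2* lay at 60.3 to 67.6 CPM, below all WT (96.4 to 166.6 CPM) and Igfbp2-treated (142.5 to 159.2 CPM) libraries, while the groups of *Akt1* overlapped.

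A first comparison asked how these genes differed between vehicle-treated *Ncf1*-/- and WT NSCs. Of the 9 genes, 6 were called, all lower in *Ncf1*-/- NSCs (*Insr*, *Irs1*, *Irs2*, *Pik3ca*, *Foxo1* and *Foxo3*), at an adjusted p under 0.05 in edgeR's quasi-likelihood test. Of all 15706 genes tested, 57.2% were called in this comparison, made up of 28.2% lower and 28.9% higher. The groups did not overlap for 5 of the 9 genes, against 51.2% of all genes. Over the 9 genes the median log2 difference was −0.53, against 0.02 over all genes. With WT replicates 3 and 4 both left out, 5 of the 9 genes were called, all lower, where 59% of all genes were called, 29.2% higher and 29.8% lower, and *Insr* was lost (log2 −0.36, edgeR adjusted p = 0.0600).

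A second comparison asked how they differed between Igfbp2-treated and vehicle-treated *Ncf1*-/- NSCs. Of the 9 genes, 5 were called, all higher with Igfbp2 (*Insr*, *Irs1*, *Irs2*, *Foxo1* and *Foxo3*), where 25% of all genes were called, 14.2% higher and 10.7% lower. When libraries were scaled by their totals alone, without TMM factors, 5 were called as well, with *Akt1* lower and the other 4 (*Insr*, *Irs2*, *Foxo1* and *Foxo3*) higher, where 37.6% of all genes were called, 4.13% higher and 33.5% lower. The groups did not overlap for 5 genes (*Insr*, *Irs2*, *Akt2*, *Foxo1* and *Foxo3*), against 34.1% of all genes. The median log2 fold change was 0.44, against 0.04 over all genes. With the summed Y-linked expression as a covariate, 0 of the 9 genes (1 at an unadjusted p under 0.05) and 5 of all genes were called in edgeR. In that fit WT replicate 4 alone sets Y-linked expression apart from treatment. The log2 fold change was then 0.47 for *Insr*, 0.31 for *Irs1*, 0.62 for *Irs2*, 0.40 for *Foxo1* and 0.39 for *Foxo3* (edgeR adjusted p = 0.191 to 0.744). The 5 genes kept a positive sign with library totals. On the deposited TPM scale *Irs1* did not, at −0.0216 in limma on log2(TPM + 1), where the median of all genes was −0.35. There 2 genes were called, *Irs2* higher and *Akt1* lower, where 39.6% of all genes were called, 0.951% higher and 38.7% lower. Short RNAs made up 56.0 to 60.3% of TPM with vehicle, 62.1 to 72.3% with Igfbp2 and 59.8 to 66.8% in WT. The part of this in the TPM values was not tested.

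**Figure D2:**
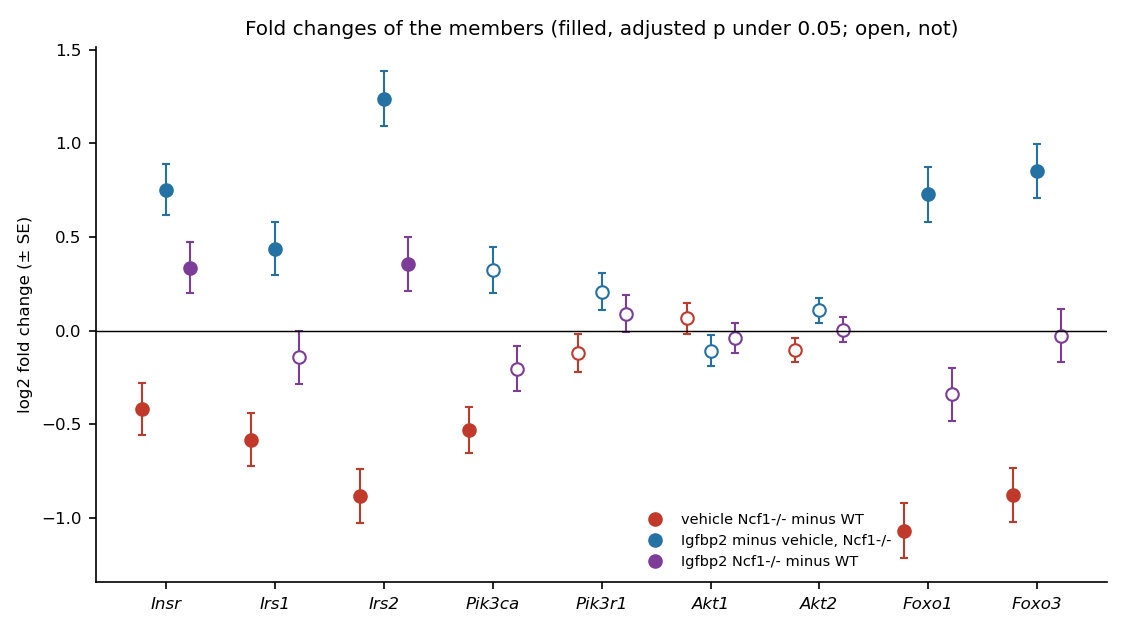
Fitted log2 fold changes (vertical axis) with their SE for the 9 genes (horizontal axis) in the 3 comparisons, filled where the edgeR adjusted p was under 0.05. Points of vehicle-treated *Ncf1*-/- minus WT lie between −1.07 and 0.07 and those of Igfbp2 minus vehicle between −0.11 and 1.24, and both use the same vehicle libraries. On the deposited TPM scale *Irs1*, *Pik3ca*, *Pik3r1* and *Akt2* took the opposite sign in Igfbp2 minus vehicle.

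The third comparison set Igfbp2-treated *Ncf1*-/- beside WT NSCs. Here 2 of the 9 genes were called, *Insr* and *Irs2*, both higher with Igfbp2 (on the deposited TPM scale both were slightly lower, at −0.11 and −0.0407), where 62.4% of all genes were called and 31.6% were higher. Which genes were called, and in which direction, changed with the processing. Without WT replicates 3 and 4, *Irs2* was higher and *Foxo1* lower (log2 −0.38, edgeR adjusted p = 0.0398), and *Insr* was not called (0.36, edgeR adjusted p = 0.0597), where 64.5% of all genes were called, 30.4% higher and 34.1% lower. That fit set WT libraries with high Y-linked RNA against Igfbp2-treated libraries with low Y-linked RNA. With Y-linked expression as a covariate *Irs2* took the opposite sign, and 1 of the 9 genes was called, lower, where 43.2% of all genes were called. In the fit of the 2 groups compared, *Pik3ca* and *Foxo1* were called, both lower, where 59.6% of all genes were called, 28.9% higher and 30.7% lower. With library totals *Foxo1* alone was called, lower (−0.43, edgeR adjusted p = 0.0238), where 61.6% of all genes were called, 26.7% higher and 34.9% lower. In limma on log2(TPM + 1), *Irs1*, *Akt1*, *Akt2* and *Foxo1* were called, all lower, where 54.8% of all genes were called, 12.3% higher and 42.5% lower. The groups did not overlap for *Foxo1*, which was not called in the main test, against 54.3% of all genes. The median log2 fold change was −0.03, against −0.01 over all genes. The number of the 9 genes called ranged from 0 to 3 when single libraries were left out, where 9192 to 10031 of all genes were called. Of the 9 genes 0 were called without vehicle-treated replicate 2, Igfbp2-treated replicate 4 or WT replicate 2. The 3 comparisons share libraries in pairs, so that their values are not independent of each other.

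*Insr*, the receptor itself, had 49.2, 59.4, 51.7 and 69.6 CPM in vehicle-treated *Ncf1*-/- replicates 1 to 4. It had 70.6, 72.2, 74.5 and 90.1 CPM in the WT libraries and 75.8, 102.3, 112.0 and 97.7 CPM in the Igfbp2-treated libraries, with 1129 to 2596 counts behind each value. All vehicle-treated libraries were below all others, replicate 4 by little, and the Igfbp2-treated and WT libraries overlapped. The means were 57.5 ± 9.18, 76.8 ± 8.97 and 97.0 ± 15.3 CPM (SD, n = 4) for vehicle, WT and Igfbp2. Against WT, *Insr* fell in the vehicle-treated libraries (log2 −0.42, SE 0.14, edgeR adjusted p = 0.0187). That call was lost with library totals (−0.23, edgeR adjusted p = 0.203) and without vehicle-treated replicate 1 (−0.35, edgeR adjusted p = 0.0621). It was higher with Igfbp2 than with vehicle (0.75, SE 0.14, edgeR adjusted p = 0.00291) and this call held with each of the 12 libraries left out, at 0.64 to 0.88. On the deposited TPM scale it was lost (0.23, limma adjusted p = 0.363), and the libraries overlapped, at 6.20 to 8.99 TPM with vehicle and 6.01 to 11.89 TPM with Igfbp2. Against WT, Igfbp2-treated NSCs were higher by 0.34 (edgeR adjusted p = 0.0460), a call lost without 8 of the 12 single libraries and without WT replicates 3 and 4 together (0.36, edgeR adjusted p = 0.0597).

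The adaptors Irs1 and Irs2 carry the signal of the receptor to PI3K. *Irs2* stood at 60.3, 67.6, 65.5 and 65.1 CPM with vehicle and at 142.5, 157.2, 159.2 and 151.2 CPM with Igfbp2. WT libraries had 96.4, 98.7, 115.2 and 166.6 CPM. The vehicle-treated libraries lay below all others, and WT replicate 4 was the highest of the 12. *Irs2* was lower with vehicle than in WT NSCs (log2 −0.88, SE 0.14, edgeR adjusted p = 0.000177) and remained so without WT replicates 3 and 4 (−0.64, edgeR adjusted p = 1.48e-05). With Igfbp2 it was 2.36-fold higher than with vehicle (1.24, SE 0.15, edgeR adjusted p = 0.000496), the largest fold change of the 9 genes in the 3 comparisons. On the deposited TPM scale the difference was 0.72, which is 1.07 above the median of all genes there. Against WT the difference was 0.36 (edgeR adjusted p = 0.0451). That call was lost without any 1 of 11 libraries. Without WT replicates 3 and 4 the value was 0.56 (edgeR adjusted p = 6.35e-05), and without WT replicate 4 alone it was 0.49 (edgeR adjusted p = 0.000280). WT replicate 4 was the only WT library with low Y-linked RNA (6.46 CPM). Without it, group and sex-linked expression cannot be told apart in this comparison. With Y-linked expression as a covariate the difference took the opposite sign.

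*Irs1* had 54.0, 59.8, 59.4 and 81.5 CPM in the vehicle-treated libraries, 100.01, 100.01, 79.3 and 102.1 CPM in the WT libraries and 76.3, 87.1, 104.4 and 77.5 CPM in the Igfbp2-treated libraries. Vehicle-treated replicate 4 was high within its group and WT replicate 3 low, so that both pairs of groups overlapped. Vehicle-treated *Ncf1*-/- minus WT was −0.58 on the log2 scale (SE 0.14, edgeR adjusted p = 0.00320). It was −0.70 (edgeR adjusted p = 0.00141) without WT replicates 3 and 4. Between the treatments it was 0.44 (SE 0.14, edgeR adjusted p = 0.0380), and this call was lost with library totals (0.17, edgeR adjusted p = 0.397) and without any 1 of 9 libraries, with values of 0.29 to 0.60 over the 12 single libraries left out. Beside the median of all genes, the value was 0.40 with TMM factors, 0.41 with library totals and 0.33 on the TPM scale. Igfbp2-treated and WT NSCs differed by −0.14 (95% interval −0.45 to 0.16), or −0.29 (edgeR adjusted p = 0.113) without WT replicates 3 and 4.

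Of the PI3K subunits, *Pik3ca* encodes the catalytic p110α. Its vehicle-treated libraries had 42.5, 46.3, 46.4 and 65.3 CPM, those of WT 68.5, 72.8, 75.8 and 72.4 CPM and those with Igfbp2 54.7, 63.9, 69.3 and 63.5 CPM. Vehicle-treated replicate 4 lay close to the WT libraries, and the other vehicle-treated libraries were below all libraries of the other groups. *Pik3ca* was lower with vehicle than in WT NSCs (log2 −0.53, SE 0.12, edgeR adjusted p = 0.00232; −0.54 and 0.00574 without WT replicates 3 and 4). Between the treatments the difference was 0.33 (95% interval 0.06 to 0.59, edgeR adjusted p = 0.0673), or −0.10 on the deposited TPM scale, and passed the test without vehicle-treated replicate 4 (0.50, edgeR adjusted p = 0.00291).

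*Pik3r1* encodes the regulatory p85α. It had 247.7, 262.7, 247.6 and 315.7 CPM with vehicle, 285.4, 312.3, 271.3 and 296.2 CPM in WT and 284.7, 316.7, 291.4 and 348.3 CPM with Igfbp2. The 3 groups overlapped, again with vehicle-treated replicate 4 above the rest of its group. The log2 differences were −0.12 (95% interval −0.33 to 0.10) against WT and 0.21 (−0.01 to 0.42) between the treatments, and neither passed the test. With library totals they were 0.0646 and −0.0666. The difference from WT was −0.20 (edgeR adjusted p = 0.146) without WT replicates 3 and 4. Without vehicle-treated replicate 4 both differences passed, at −0.24 (edgeR adjusted p = 0.0404) and 0.31 (edgeR adjusted p = 0.0289).

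The kinases *Akt1* and *Akt2*, which phosphorylate FOXO factors and inhibitors of mTORC1, relieving the inhibition, had the smallest F statistics of the 9 genes over the 3 groups (0.864 and 1.73). *Akt1* had 182.4, 186.4, 201.2 and 187.8 CPM with vehicle, 176.6, 175.2, 200.01 and 171.8 CPM in WT and 184.9, 177.2, 186.5 and 155.5 CPM with Igfbp2. The groups overlapped in all 3 comparisons, and log2 differences were 0.07 (95% interval −0.11 to 0.24), −0.11 (−0.28 to 0.07) and −0.04 (−0.22 to 0.14) for vehicle against WT, Igfbp2 against vehicle and Igfbp2 against WT. Without WT replicates 3 and 4 the differences from WT were 0.06 with vehicle and −0.08 with Igfbp2. With library totals the difference between the treatments was −0.38 (edgeR adjusted p = 0.0112), where the median of all genes was −0.23. *Akt2* had 106.6, 108.3, 111.4 and 106.5 CPM with vehicle and 123.4, 115.1, 116.4 and 111.9 CPM with Igfbp2. These groups did not overlap, but the difference was small (log2 0.11, 95% interval −0.03 to 0.25, edgeR adjusted p = 0.237) and was −0.16 with library totals. In WT it had 112.2, 117.7, 124.0 and 110.8 CPM and vehicle minus WT was −0.10 (95% interval −0.24 to 0.04), or 0.0753 with library totals and −0.13 (edgeR adjusted p = 0.131) without WT replicates 3 and 4.

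FOXO factors are the transcription factors that AKT restrains. *Foxo3* had 83.2, 91.0, 92.2 and 106.9 CPM with vehicle, 132.4, 159.4, 170.6 and 223.1 CPM in WT and 148.9, 175.5, 157.9 and 190.9 CPM with Igfbp2. No vehicle-treated library reached any library of the other groups, and WT replicate 4 was the highest of all. Vehicle-treated *Ncf1*-/- minus WT was −0.88 on the log2 scale (SE 0.14, edgeR adjusted p = 0.000176), and −0.69 (edgeR adjusted p = 0.000234) without WT replicates 3 and 4. Between the treatments it was 0.85 (SE 0.14, edgeR adjusted p = 0.00210), with values of 0.75 to 0.94 when single libraries were left out. The call was lost on the deposited TPM scale (0.34, limma adjusted p = 0.189), where the median of all genes was −0.35. Igfbp2-treated and WT NSCs differed by −0.03 (95% interval −0.33 to 0.28), or 0.12 without WT replicates 3 and 4.

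*Foxo1* was the least abundant of the 9 genes, with 182 to 626 counts per library. It stood at 7.93, 9.14, 10.6 and 12.1 CPM with vehicle, at 18.4, 22.2, 18.0 and 25.1 CPM in WT and at 14.1, 17.7, 17.3 and 16.9 CPM with Igfbp2. The 3 groups did not overlap, with Igfbp2 between vehicle and WT. *Foxo1* was lower with vehicle than in WT NSCs (log2 −1.07, SE 0.15, edgeR adjusted p = 3.88e-05; −1.07 and 3.30e-05 without WT replicates 3 and 4). It was higher with Igfbp2 than with vehicle (0.73, SE 0.15, edgeR adjusted p = 0.00473), and these calls held with each single library left out. On the deposited TPM scale the call against WT held (−0.57, limma adjusted p = 0.0101) and that between the treatments was lost (0.13, limma adjusted p = 0.512). Igfbp2-treated NSCs were below WT by −0.34 (95% interval −0.65 to −0.03, edgeR adjusted p = 0.0535), and this passed the test without any 1 of 7 libraries, WT replicate 3 among them (−0.41, edgeR adjusted p = 0.0265), and without WT replicates 3 and 4 together (−0.38, edgeR adjusted p = 0.0398).

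To set the genes beside each other, CPM was divided by the effective transcript length in kilobases. On this scale the order of mean levels was *Akt1*, *Pik3r1* and *Akt2* at the top and *Insr*, *Pik3ca*, *Irs1* and *Foxo1* at the bottom in each group. *Akt1* had 76.7 ± 5.85 CPM per kb in WT, 80.7 ± 3.29 with vehicle and 72.4 ± 5.79 with Igfbp2 (SD, n = 4), and *Foxo1* had 2.46 ± 0.399, 1.17 ± 0.214 and 1.94 ± 0.193 CPM per kb. *Irs2* and *Foxo3* changed places in the middle of the order. *Irs2* stood above *Foxo3* with Igfbp2, without overlap, at 39.5 ± 1.92 against 31.0 ± 2.69 CPM per kb, and the 2 genes overlapped with vehicle (16.8 ± 0.824 and 17.3 ± 0.535) and in WT (30.9 ± 8.46 and 31.9 ± 7.83). In each group *Pik3r1* overlapped *Akt2*, *Insr* overlapped *Pik3ca*, and *Pik3ca* overlapped *Irs1*, and in WT *Akt2* overlapped *Foxo3*.

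Ratios of these levels within a library do not depend on how libraries are scaled to each other. *Irs2* exceeded *Irs1* by 2.42 ± 0.369 times with vehicle, 2.93 ± 0.780 times in WT and 4.16 ± 0.430 times with Igfbp2, and the Igfbp2-treated libraries (3.55 to 4.54) did not overlap the vehicle-treated ones (1.87 to 2.64). WT replicates 3 and 4 stood at 3.38 and 3.80, and WT replicates 1 and 2 at 2.24 and 2.30, within the range of the vehicle-treated libraries and below their mean. *Irs1* and *Irs2* together amounted to 0.195 ± 0.0170 of *Akt1* and *Akt2* together with vehicle, 0.350 ± 0.0909 in WT and 0.425 ± 0.0323 with Igfbp2. *Foxo1* and *Foxo3* together amounted to 0.151 ± 0.00786 of *Akt1* and *Akt2* with vehicle, 0.289 ± 0.0790 in WT and 0.285 ± 0.0403 with Igfbp2. In both ratios to *Akt1* and *Akt2* the vehicle-treated libraries lay below all others. *Pik3r1* made up 24.1 ± 6.72% of *Pik3r1*, *Pik3r2* and *Pik3r3* in WT, 37.3 ± 2.93% with vehicle and 39.8 ± 3.26% with Igfbp2, with 18.0 and 18.8% in WT replicates 1 and 2 and 31.1 and 28.6% in replicates 3 and 4. *Insr* stood at 1.05 ± 0.0588 times *Igf1r* in WT, 1.31 ± 0.129 times with vehicle and 1.21 ± 0.0492 times with Igfbp2. These ratios were not tested.

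**Figure D3:**
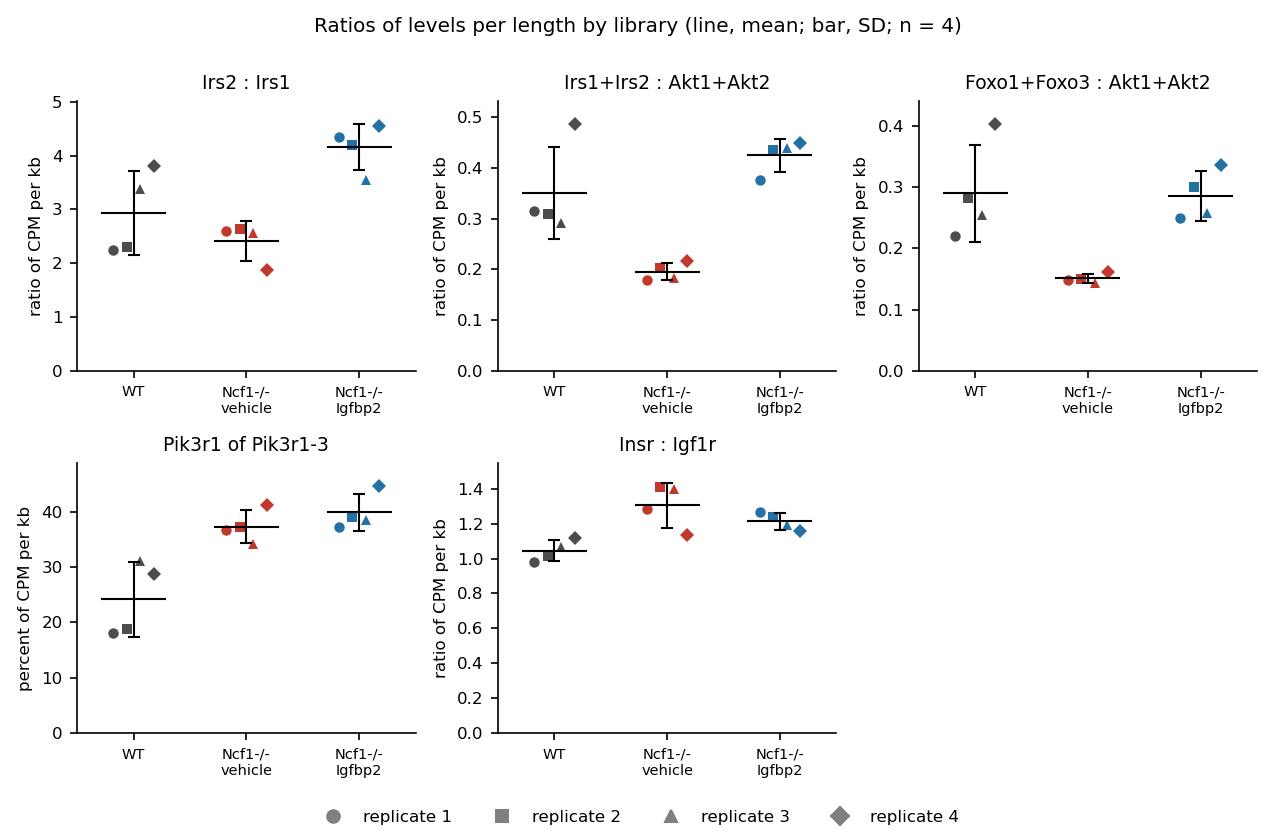
Ratios or percentages of CPM per kb within each library (vertical axes, from 0) by group (horizontal axis), with a marker shape per replicate number, a line at the mean and a bar of 1 SD. The sum of *Irs1* and *Irs2* relative to *Akt1* and *Akt2* lay at 0.180 to 0.216 in the vehicle-treated libraries and at 0.291 to 0.486 in the others.

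The mix of transcripts was followed through the mean transcript length that RSEM weights by abundance. *Irs1*, *Irs2* and *Foxo1* have 1 transcript each and were outside this test. Of the other 6 genes, 0 were called in limma between vehicle-treated *Ncf1*-/- and WT NSCs or between the treatments, where 2.38% and 1.27% of 10357 genes were called. At an unadjusted p under 0.05 there were 2 in each of these comparisons. Between Igfbp2-treated *Ncf1*-/- and WT NSCs 1 was called, *Akt1*, where 3.13% of genes were called. Its mean length was 2597 ± 22.5 bases with Igfbp2, 2528 ± 11.3 in WT and 2528 ± 23.0 with vehicle (SD, n = 4), a log2 difference of 0.04 from WT (limma adjusted p = 0.0489). Of the 12 single libraries, 1 could be left out with this call kept, vehicle-treated replicate 1. *Pik3r1*, whose shorter transcripts encode p50α and p55α, had a mean length of 6185 ± 213.5 bases with vehicle, 6509 ± 131.3 in WT and 6611 ± 176.5 with Igfbp2. The difference between the treatments was 0.10 (log2, limma adjusted p = 0.135).

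For a description of likeness, genes that averaged 5 CPM or more were ranked by the Pearson correlation of their log2 CPM with 2 of the 9 genes over the 12 libraries, which share their groups. The 5 genes nearest to *Insr* among 11171 were *Rcor1* (r = 0.98), *Wnk1* (0.97), *Zmat3* (0.97), *Sorl1* (0.97) and *Kpna6* (0.97). Those nearest to *Irs2*, which had the largest F of the 9 genes over the 3 groups (36.8), were *Lrp5* (0.98), *Dlg4* (0.97), *Ptgfrn* (0.97), *Stat5b* (0.97) and *Sorl1* (0.96). *Sorl1*, a sorting receptor, was near both.

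The wider pathway was followed in 91 other genes in 5 roles, of which 81 could be tested. Between vehicle-treated *Ncf1*-/- and WT NSCs 59 were called, 13 higher and 46 lower, which is 72.8% where 57.2% of all genes were called. Their median log2 fold change was −0.28. With library totals 18 were higher and 31 lower, where 58.5% of all genes were called, 38.4% higher and 20.1% lower, and the median was −0.10 where that of all genes was 0.19. Without WT replicates 3 and 4, 60 were called, 17 higher and 43 lower, where 59% of all genes were called, 29.2% higher and 29.8% lower. Between the treatments 20 were called, 18 higher and 2 lower, which is 24.7% where 25% of all genes were called, with a median of 0.15. With the Y-linked covariate 1 of the 81 was called, lower, where 5 of all genes were called. Treatment and sex-linked expression cannot be told apart in the calls between the treatments named below. With library totals 4 were higher and 16 lower (median −0.13), where the median of all genes was −0.23 and 648 of the 5906 genes called were higher. In limma on log2(TPM + 1) all 18 called were lower, where 39.6% of all genes were called, 38.7% lower. The first count was 31 in the fit of the 2 groups compared, both without a block (23 higher and 8 lower, where 37.8% of all genes were called) and with the replicate number as a block (25 and 6, where 36% were called). It was as low as 8 with single libraries left out (without Igfbp2-treated replicate 2). It was 9 without vehicle-treated replicate 1, 2 or 3 or Igfbp2-treated replicate 4, and 11 without Igfbp2-treated replicate 3. In these fits with a library left out, 2294 to 2844 of all genes were called, against 3923 in the main test.

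**Figure D4:**
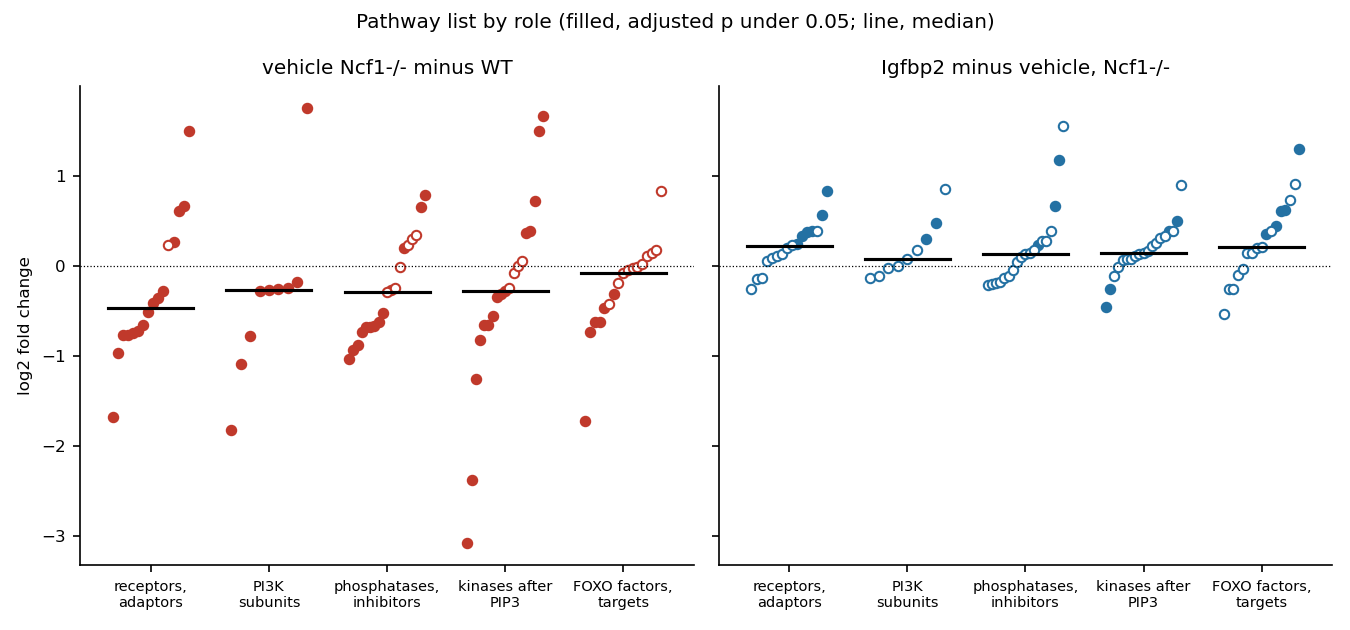
Fitted log2 fold changes (vertical axis) of the pathway genes that were tested, by role (horizontal axis), for vehicle-treated *Ncf1*-/- minus WT (left) and Igfbp2 minus vehicle (right), filled where the edgeR adjusted p was under 0.05, with a line at the median. *Sgk2*, with 0 to 3 counts in each *Ncf1*-/- library, is left out, and the medians of the 5 roles lie between −0.47 and −0.08 on the left and between 0.08 and 0.22 on the right, where they are below 0 with library totals.

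Among 16 tested receptors and adaptors, 11 were lower and 4 higher with vehicle than in WT NSCs, the same numbers as without WT replicates 3 and 4, and 6 were higher with Igfbp2 than with vehicle. These are 93.8% and 37.5%, where 57.2% and 25% of all genes were called. *Igf1r*, the receptor of Igf1 and Igf2, had 28.5 to 40.4 CPM with vehicle, 48.6 to 59.2 CPM in WT and 44.2 to 66.7 CPM with Igfbp2. The vehicle-treated libraries lay below all others, with log2 fold changes of −0.73 (edgeR adjusted p = 0.000487) against WT and 0.84 (edgeR adjusted p = 0.00179) between the treatments. *Grb10*, an adaptor that inhibits both receptors, went the other way against WT, at 12.6 to 19.1 CPM with vehicle and 4.503 to 5.79 CPM in WT (1.503, edgeR adjusted p = 1.51e-06), and rose further with Igfbp2 to 21.7 to 24.3 CPM (0.56, edgeR adjusted p = 0.00863), though not on the deposited TPM scale (−0.00146). *Ptpn11*, which encodes the phosphatase Shp2, was lower than in WT by −0.97 (edgeR adjusted p = 0.000160), with 224.9 and 273.5 CPM in WT replicates 3 and 4 against 382 and 398 CPM in replicates 1 and 2. Without WT replicates 3 and 4 the log2 differences from WT were −0.74 for *Igf1r*, 1.55 for *Grb10* and −1.31 for *Ptpn11*, and all 3 stayed called (edgeR adjusted p = 0.00145, 3.69e-06 and 5.09e-08).

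All 9 tested genes for other PI3K subunits were called between vehicle-treated *Ncf1*-/- and WT NSCs, 8 lower and 1 higher. Of all genes 57.2% were called there, 28.2% lower. Without WT replicates 3 and 4, 6 were lower and 1 higher, where 59% of all genes were called, 29.8% lower. *Pik3r3*, which encodes the regulatory p55γ, differed most among those averaging 5 CPM or more (log2 −1.82, SE 0.34, edgeR adjusted p = 0.000468). It had 91.2 to 101.0 CPM with vehicle and 480.8, 517.4, 127.2 and 204.2 CPM in WT, so that WT replicate 3 was nearest to the *Ncf1*-/- libraries, and without WT replicates 3 and 4 the difference was −2.46 (edgeR adjusted p = 1.94e-11). Between the treatments 2 genes were called, both higher with Igfbp2 (22.2%, against 25% of all genes). *Pik3c2b*, a class II catalytic gene, had 14.1 to 16.01 CPM with vehicle and 17.9 to 22.8 CPM with Igfbp2 (0.48, edgeR adjusted p = 0.00690), though not on the deposited TPM scale (−0.0283). With library totals the calls between the treatments of *Grb10*, *Pik3c2b*, *Mtor* and *Sesn1* were lost, at 0.20 to 0.34.

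Of 19 tested phosphatases and inhibitors, 10 were lower and 3 higher with vehicle than in WT NSCs, or 8 and 4 without WT replicates 3 and 4. This is 68.4%, where 57.2% of all genes were called (59% without those replicates). *Inppl1*, which encodes the 5-phosphatase Ship2 that acts on PIP3, fell most (log2 −1.04, edgeR adjusted p = 1.36e-06), from 214.3 to 294.2 CPM in WT to 125.6 to 128.4 CPM with vehicle. *Inpp4b*, which encodes a 4-phosphatase of phosphoinositides, rose by 0.79 (edgeR adjusted p = 0.00297) from 2.27 to 4.45 CPM in WT to 5.37 to 7.28 CPM. These differences were −1.22 (edgeR adjusted p = 1.61e-08) and 0.94 (edgeR adjusted p = 0.00187) without WT replicates 3 and 4. Between the treatments 3 genes were called, all higher, which is 15.8% and below the 25% of all genes. Of these, *Phlda3*, which encodes a p53-induced inhibitor of AKT at the membrane, differed most among those averaging 5 CPM or more, at 56.4 to 65.1 CPM with vehicle and 89.4 to 105.4 CPM with Igfbp2 (0.66, edgeR adjusted p = 0.00228). It was lowest in WT, at 31.1 to 47.8 CPM.

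Of 20 tested genes for kinases below PIP3 and their complexes, 11 were lower and 5 higher with vehicle than in WT NSCs, or 12 and 5 without WT replicates 3 and 4. This is 80% called, where 57.2% of all genes were (59% without those replicates). *Sgk1*, a kinase related to AKT, had 11.03 to 12.7 CPM with vehicle and 46.8 to 132.9 CPM in WT (−3.08, edgeR adjusted p = 9.79e-07), and *Prr5*, a part of mTORC2, rose from 1.997 to 4.45 CPM in WT to 7.93 to 9.96 CPM (1.66, edgeR adjusted p = 3.81e-05). They differed from WT by −3.41 (edgeR adjusted p = 9.31e-11) and 1.94 (edgeR adjusted p = 1.10e-06) without WT replicates 3 and 4. Between the treatments 2 genes rose and 2 fell, which is 20% called against 25% of all genes. *Mtor* rose from 71.2 to 91.9 CPM with vehicle to 95.5 to 124.0 CPM with Igfbp2 (0.50, edgeR adjusted p = 0.00544), though not on the deposited TPM scale (−0.00191). *Rps6kb2*, a kinase of ribosomal protein S6, fell from 16.1 to 22.6 CPM to 13.2 to 15.2 CPM (−0.46, edgeR adjusted p = 0.0275), a call lost without vehicle-treated replicate 1 or 3 or Igfbp2-treated replicate 4 (−0.37, −0.46 and −0.46, edgeR adjusted p = 0.0528 to 0.0912).

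Of 17 tested genes for other FOXO factors and textbook FOXO targets, 6 were called between vehicle-treated *Ncf1*-/- and WT NSCs, all lower, and 5 between the treatments, all higher with Igfbp2 (29.4%, against 25% of all genes). The numbers against WT were 6 lower and 3 higher without WT replicates 3 and 4, where 59% of all genes were called. With library totals 4 were lower and 2 higher in the first comparison, where 58.5% of all genes were called. In the second, 1 was higher and 4 lower, where 37.6% of all genes were called, 33.5% lower. The share called against WT was 35.3%, below the 57.2% of all genes, and the median was −0.08, or 0.09 with library totals. *Txnip*, which binds thioredoxin, was lower than in WT by −0.74 (edgeR adjusted p = 0.0235), at 49.6 to 68.4 CPM with vehicle and 78.2 to 147.8 CPM in WT, and lost its call without vehicle-treated replicate 2 or 4 or WT replicate 4 (−0.53 to −0.71, edgeR adjusted p = 0.0565 to 0.0701). It was −0.60 (edgeR adjusted p = 0.0470) without WT replicates 3 and 4. *Sesn1*, a stress-induced inhibitor of mTORC1, had 40.0 to 47.8 CPM with vehicle and 51.4 to 76.5 CPM with Igfbp2 (0.62, edgeR adjusted p = 0.0247). This call was lost without vehicle-treated replicate 2 or 3 or Igfbp2-treated replicate 1, 2 or 4 (0.53 to 0.61, edgeR adjusted p = 0.0588 to 0.0691). The groups did not overlap, and WT libraries spanned 35.7 to 64.8 CPM with replicate 3 the highest.

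Markers of other cell types also differed between vehicle-treated *Ncf1*-/- and WT NSCs, where 57.2% of all genes were called, 28.2% lower and 28.9% higher. Of 10 oligodendrocyte lineage markers 8 were lower in vehicle-treated *Ncf1*-/- NSCs and 2 higher (median log2 −3.31), and of 6 astrocyte markers 5 were lower, with summed levels of 2622 to 3183 CPM with vehicle and 6390 to 11460 CPM in WT. Summed neuron markers stood at 482.6 to 546.9 CPM with vehicle and 597.0 to 770.1 CPM in WT, and 5 of 7 were lower. Of 8 neural stem cell markers 5 were lower and 2 higher. Without WT replicates 3 and 4, 8 oligodendrocyte lineage markers were lower and 1 higher, 4 astrocyte markers lower and 1 higher, 6 neuron markers lower, and 5 neural stem cell markers lower and 3 higher. In that fit 59% of all genes were called, 29.2% higher and 29.8% lower. Between the treatments 1 of 10 oligodendrocyte lineage markers and 1 of 8 neural stem cell markers were higher and 2 of 7 neuron markers lower. There 25% of all genes were called, 14.2% higher and 10.7% lower. Summed astrocyte markers stood at 2998 to 4004 CPM with Igfbp2. Microglial markers summed to 0.835 to 2.13 CPM and endothelial markers to 2.03 to 6.04 CPM over all libraries, near 0, with 2 of 7 and 2 of 5 passing the filter. Mesenchymal markers summed to 8.15 to 10.6 CPM with vehicle, 19.7 to 23.4 CPM with Igfbp2 and 9.58 to 24.1 CPM in WT, whose libraries spanned both treatments. Of 6 mesenchymal markers 4 were tested, and 3 of these were called higher with Igfbp2 than with vehicle (median log2 1.34), or 2 with library totals and 4 in the fit of the 2 groups compared, with or without a block. With vehicle 3 were higher and 1 lower than in WT, and likewise with Igfbp2, also without WT replicates 3 and 4. For Igfbp2 against WT 62.4% of all genes were called, or 64.5% without these replicates. The part of these differences in the results on the 9 genes was not tested.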

How the data were processed

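RNA of 12 NSC libraries (4 WT, 4 vehicle-treated and 4 Igfbp2-treated *Ncf1*-/-) was sequenced after rRNA depletion. The authors aligned reads to GRCm38 with Bowtie2 and estimated abundance with RSEM, whose versions are not given in the sources used here. The deposited expected counts, rounded to whole numbers (15.9% were not whole), were the main unit, and library totals were 18201622 to 34086554. The deposited TPM values were used in alternatives, transcript lengths per the file headers in the test of length and effective lengths in levels per kilobase. A merged table, whose deposited score is TPM multiplied by the authors by the number of transcripts, gave gene names, and deposited FPKM was not used.

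Of 45792 genes, 15706 passed edgeR's filterByExpr (99.9% of counts). Groups came from the labels. The main test was edgeR's quasi-likelihood test (edgeR 4.0.16, R 4.3.3) with TMM factors over all 12 libraries and Benjamini-Hochberg adjustment over all genes tested, called under 0.05. Intervals are 95% intervals of the fitted log2 fold change. Log2 transcript length was tested with limma 3.58.1 over 10357 genes. The code was tested on simulated data. The 9 genes, the pathway and marker lists and the tests were chosen with earlier results of these data known.

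Alternatives were DESeq2 1.42.0, library totals, no filter, fits of the 2 groups compared, the study's ANOVA with Tukey's test on TPM, limma on log2(TPM + 1) for genes with a mean TPM of at least 1, Y-linked expression as a covariate, the replicate number as a block and each library left out. Leaving out WT replicates 3 and 4 together was added after the data were seen. The pathway genes named were, for each role and each of the first 2 comparisons, the called gene with the largest rise and the one with the largest fall among those with a mean of at least 5 CPM, with *Igf1r* always named and *Grb10* between the treatments added. Some genes of the pathway list are not reported by name here.

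The methods of the study state that each *Ncf1*-/- animal gave a vehicle-treated and an Igfbp2-treated culture. The deviations of same-numbered libraries from their group means correlated at −0.0673 to 0.0328 in 4 pairs, and those of different numbers at −0.248 to 0.257 in 12 pairs. No 2 replicates agreed within sampling noise (chi-square per degree of freedom 4.72 to 146 in 18 pairs). P-values measure the spread between cultures, each from a single pup according to the methods of the study, which *Xist* beside Y-linked RNA in the vehicle-treated libraries goes against. The 4 vehicle-treated libraries were close in Y-linked RNA (105.3 to 115.5 CPM) and in *Xist* (72.3 to 87.8 CPM). Whether they came from 4 separate animals was not tested, so the spread may not be one between animals.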

Additional observations from a re-analysis of the deposited data

Results flagged for a closer look

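In each group of 4 libraries, the gap between the highest or the lowest value of a gene and its nearest neighbour was set against the range of the group, and 2 of 27 groups exceeded Dixon's 95% critical value for 4 samples. By chance about 1 in 20 groups does so. *Irs1* in WT replicate 3 was low at 79.3 CPM (gap ratio 0.908), where the other WT libraries had 100.01 to 102.1 CPM. *Akt1* in WT replicate 3 was high at 200.01 CPM (gap ratio 0.830), where the others had 171.8 to 176.6 CPM. Both came from the WT library whose summed *Vim*, *Fabp7* and *Nes* (7194 CPM) lay within the range of the *Ncf1*-/- libraries, while its other 5 neural stem cell markers (1113 CPM) did not, and the part of that difference was not tested.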

How the results depend on the processing

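Over the alternatives, log2 fold changes of the 9 genes and *Akt1* and *Pik3r1* lengths kept direction and side of the threshold in 480 of 614 cases, lost a call in 71, gained one in 21 and changed sign in 42. The named pathway genes kept both in 284 of 327 cases, lost a call in 38 and changed sign in 5. The cause of these changes was not tested. Against WT, 6 of 9 genes called became 1 with ANOVA and Tukey's test (15.5% of all genes) and 3 with limma on log2(TPM + 1) (42.1% of all genes), all lower. With single libraries left out they became 5 to 7, where 8254 to 9406 of all genes were called (8978 in the main test). Between the treatments, 5, all higher, became 0 with ANOVA (7.7% of all genes), 2 with limma (39.6% of all genes), of which *Irs2* was higher and *Akt1* lower, and 0 with the Y-linked covariate (0.0318%). With single libraries left out they became 4 to 7, where 2294 to 4872 of all genes were called (3923 in the main test). For Igfbp2 against WT, 2 became 1 with DESeq2 (49.2% of all genes), 1 with library totals (61.6%), 0 with ANOVA (20.1%), 4 with limma (54.8%) and 1 with the covariate (43.2%). With single libraries left out they became 0 to 3, where 9192 to 10031 of all genes were called (9801 in the main test). At an unadjusted p under 0.05, ANOVA gave 1 gene, lower, in each of the latter comparisons. The 2 of the fit on the groups compared were both lower. The pathway list against WT gave 17 of 90 with ANOVA and 33 of 74 with limma (59 of 81 in the main test), near the shares of all genes there. Between the treatments it gave 13 of 90 with no filter (11.6% of all genes), 31 of 79 in the fit of the groups compared (37.8%), 2 of 90 with ANOVA (7.7%), 1 of 81 with the covariate (0.0318%) and 31 of 79 with the replicate block in a fit of the same 2 groups (36%). With single libraries left out it gave 8 to 27, where 2294 to 4872 of all genes were called, against 3923 in the main test. The replicate block left the 5 genes called between the treatments at 5. For Igfbp2 against WT, 0 to 1 lengths were called with single libraries left out. The median of all genes moved by over 0.1 with library totals, to 0.19 against WT and −0.23 between the treatments, and with limma on TPM, to −0.35 between the treatments and −0.32 for Igfbp2 against WT.

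Signs changed as follows. With library totals: *Pik3r1* 0.0646 and *Akt2* 0.0753 against WT, *Pik3r1* −0.0666 and *Akt2* −0.16 between the treatments, and *Pik3r1* −0.00208 and *Akt2* −0.0879 for Igfbp2 against WT. With ANOVA on TPM: *Pik3r1* 0.0106 against WT, *Irs1* −0.0125, *Pik3ca* −0.12, *Pik3r1* −0.35, *Akt2* −0.39, *Pik3c2b* −0.0172 and *Grb10* −0.0104 between the treatments, and *Insr* −0.0819, *Irs2* −0.0693, *Pik3r1* −0.34 and *Akt2* −0.40 for Igfbp2 against WT. With limma on TPM: *Akt2* 0.00337 against WT, *Irs1* −0.0216, *Pik3ca* −0.10, *Pik3r1* −0.35, *Akt2* −0.40, *Pik3c2b* −0.0283, *Mtor* −0.00191 and *Grb10* −0.00146 between the treatments, and *Insr* −0.11, *Irs2* −0.0407, *Pik3r1* −0.35 and *Akt2* −0.40 for Igfbp2 against WT. With the covariate: *Irs2* −0.0655 and *Akt1* 0.0217 for Igfbp2 against WT. In that last comparison *Akt2* was −0.00208 with DESeq2 and −0.0237 in the fit of the groups compared, and without WT replicates 3 and 4 *Pik3r1* was −0.0286, *Akt2* −0.0622 and *Foxo3* 0.12. With single libraries left out it ranged from −0.14 to 0.0152 for *Akt1*, −0.0859 to 0.0419 for *Akt2* and −0.13 to 0.0593 for *Foxo3*. *Foxo1*, with 182 to 626 counts, is the gene with the fewest counts of the 9.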
